A study of Mus musculus with 9 samples.

Results

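The *Six2*, *Six4* and *Six5* homeobox genes and the Eya and Dach genes were examined in the open chromatin of the embryonic mouse cochlea. The other members of the 9 were *Eya1*, *Eya2*, *Eya3*, *Eya4*, *Dach1* and *Dach2*. A peak was given to a member when its summit lay nearest to one of that gene's protein-coding start sites, at a distance of at most 500 kb. Of the 286921 peaks in the 9 lists, 346 met this rule. Merging over all lists, at gaps of up to 100 bp, gave 88 regions at these genes out of 68365 in all. The rule used distance alone and no measured level.

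The assay was ATAC-seq, which reads accessible DNA through the cuts of a transposase, on cells sorted from the cochlear duct of Sox2-EGFP mice (B6;129S-Sox2tm2Hoch/J). These mice carry EGFP knocked into the coding region of *Sox2*, and embryos were taken as EGFP-positive by epifluorescence, so every group shared the reporter allele. The Sox2-EGFPhigh+ cells, which held the strongest EGFP signal and stand for the prosensory progenitors of hair cells and support cells, were represented by 2 samples each at E12, E14.5 and E16. The Sox2-EGFP- cells of the same dissection were represented by 1 sample at E14.5 and 2 at E16, with none at E12, and each replicate came from pooled ducts of 1 litter. Cells of low and intermediate EGFP lay outside the high gate. In such bulk samples, fewer cells of a type and less signal per cell cannot be told apart.

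The lists held between 7577 peaks (E12 replicate 2) and 66332 peaks (E14.5 Sox2-EGFPhigh+ replicate 1), and the 3 Sox2-EGFP- lists held 23302 to 23899. E14.5 Sox2-EGFPhigh+ replicate 1 and E16 Sox2-EGFPhigh+ replicate 2, the longest lists, stood apart from the rest. No reads were used, so samples were compared by the rank of a peak within its own list, from the highest −log10 p downwards. The sample titles set the groups, and a separate cell type tag contradicts the title for 3 of the 4 E16 samples. Markers were counted among the 20000 highest peaks of each E14.5 and E16 list, without E12. The 5 prosensory markers summed to 18 to 20 peaks per Sox2-EGFPhigh+ list and 9 to 11 per Sox2-EGFP- list, in the direction of the titles. The 7 otic mesenchyme markers summed to 1 to 4 and 16 to 20 peaks, with *Prrx1* and *Col1a2* at 0 in each E14.5 and E16 Sox2-EGFPhigh+ list. Of 5 epithelial markers, summing to 13 to 17 and 6 to 7 peaks, *Esrp1*, a splicing factor, was at 0 in the Sox2-EGFP- lists and *Cldn6* was at 0 in both cell types. Endothelial markers summed to 1 to 5 and 5 to 7, neuron and glia markers to 4 to 7 and 2, and macrophage markers to 0 to 1 and 1. Prosensory against non-sensory cells, and epithelium against mesenchyme, cannot be told apart in these groups.

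*Six2*, *Six4* and *Six5* encode homeodomain transcription factors. Eya proteins bind them as coactivators and also carry a phosphatase domain, and Dach proteins, relatives of Ski, act mostly as corepressors in the same complexes. In the inner ear this network acts from the otic placode to the sensory domains. *Eya1* is required for inner ear formation and is mutated in branchio-oto-renal syndrome, and *EYA4* is mutated in a dominant form of hearing loss. From such general knowledge, *Eya1*, *Eya4*, *Six4* and *Dach1* were grouped as genes of the otic epithelium. *Eya3* and *Six5* were grouped as broadly expressed, and *Six2*, *Eya2* and *Dach2* as best known in other tissues, such as nephron progenitors, muscle precursors and mesenchyme.

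The regions on which the comparisons turn are shown as 250 bases of the mm9 forward strand around the best summit, with each CpG dinucleotide in capitals. The first pair had a peak in both cell types and lies far upstream of *Eya1* and of *Eya2*. Capitals are dense in these sequences, as they are at many start sites.
Eya1, -197 kb, chr1:14496674-14496923: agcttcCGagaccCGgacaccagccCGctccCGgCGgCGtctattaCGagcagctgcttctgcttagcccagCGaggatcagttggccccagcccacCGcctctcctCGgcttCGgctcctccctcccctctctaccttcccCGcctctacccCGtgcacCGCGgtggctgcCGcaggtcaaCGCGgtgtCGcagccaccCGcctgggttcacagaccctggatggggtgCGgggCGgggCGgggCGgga
Eya2, -60.3 kb, chr2:165420406-165420655: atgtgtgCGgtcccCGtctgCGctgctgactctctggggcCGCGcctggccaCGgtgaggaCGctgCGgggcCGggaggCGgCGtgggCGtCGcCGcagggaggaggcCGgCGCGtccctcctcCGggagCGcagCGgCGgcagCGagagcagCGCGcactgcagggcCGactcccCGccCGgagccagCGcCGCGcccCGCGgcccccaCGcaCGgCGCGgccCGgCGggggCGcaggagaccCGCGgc

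The next set had peaks in Sox2-EGFPhigh+ lists alone. It holds the distal region of *Six2* and of *Eya4* with the best mean rank in the later Sox2-EGFPhigh+ lists, the highest ranked region of *Eya1* whose ranks stood apart between the cell types, and an intronic region of *Eya2*.
Six2, -60.7 kb, chr17:86148205-86148454: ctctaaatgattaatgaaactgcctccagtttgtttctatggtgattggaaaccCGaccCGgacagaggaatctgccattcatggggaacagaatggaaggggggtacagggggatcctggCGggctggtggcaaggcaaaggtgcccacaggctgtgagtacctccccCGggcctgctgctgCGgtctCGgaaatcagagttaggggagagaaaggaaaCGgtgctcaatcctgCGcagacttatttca
Eya4, 87.8 kb, chr10:22981813-22982062: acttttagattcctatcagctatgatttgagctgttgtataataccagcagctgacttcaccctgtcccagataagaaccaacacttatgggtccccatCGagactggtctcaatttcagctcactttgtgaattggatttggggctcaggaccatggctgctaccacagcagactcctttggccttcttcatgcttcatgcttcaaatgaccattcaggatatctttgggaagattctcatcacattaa
Eya1, 81.6 kb, chr1:14192334-14192583: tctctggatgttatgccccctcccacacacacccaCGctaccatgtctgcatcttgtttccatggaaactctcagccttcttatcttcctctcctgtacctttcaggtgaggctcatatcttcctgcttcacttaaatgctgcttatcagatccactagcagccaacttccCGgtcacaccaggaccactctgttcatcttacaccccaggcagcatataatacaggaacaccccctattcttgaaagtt
Eya2, 77.5 kb, chr2:165567699-165567948: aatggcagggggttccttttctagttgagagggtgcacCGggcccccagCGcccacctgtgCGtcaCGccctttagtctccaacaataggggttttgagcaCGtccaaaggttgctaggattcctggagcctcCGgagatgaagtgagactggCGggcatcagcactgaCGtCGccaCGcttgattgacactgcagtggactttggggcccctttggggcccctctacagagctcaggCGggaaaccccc

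The last sequence had peaks in Sox2-EGFP- lists alone and lies in *Eya2*, next to the one above.
Eya2, 76.4 kb, chr2:165566575-165566824: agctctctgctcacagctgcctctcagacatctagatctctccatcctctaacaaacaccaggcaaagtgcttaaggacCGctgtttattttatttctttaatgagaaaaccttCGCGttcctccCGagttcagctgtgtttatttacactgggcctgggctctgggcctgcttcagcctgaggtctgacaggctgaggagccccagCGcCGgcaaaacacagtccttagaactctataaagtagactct

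The number of regions differed widely among the members. *Eya1* had 24 regions, *Eya4* 19, *Six2* 14, *Dach1* 12 and *Eya2* 12, against 3 for *Six5*, 2 for *Six4* and 1 each for *Eya3* and *Dach2*. The stretch of genome that lay nearest to each gene differed as well, from 17.2 kb for *Six5*, which starts beside *Dmpk*, to 938 kb for *Dach1*. Of the 88 regions, 9 lay within 1 kb of a protein-coding start site, 36 in introns, 40 in intergenic sequence, 2 in untranslated exons and 1 in a coding exon. All but 1 of the intronic regions were in the member's own introns. The farthest peak lay 420 kb from its gene, at *Dach1*, and 5 further *Dach1* peaks fell outside the limit, the nearest of them at 612 kb.

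Most of the 88 regions had peaks in Sox2-EGFPhigh+ lists alone (68 regions, 77.3%). A further 16 had peaks in both cell types and 4 in Sox2-EGFP- lists alone. Over all regions of the series, 65.2% had Sox2-EGFPhigh+ peaks alone, and over all regions farther than 1 kb from a start site 78.5% did, against 67 of 79 (84.8%) at these genes. There are 6 Sox2-EGFPhigh+ lists and 3 Sox2-EGFP- lists, and the deposited peaks had to recur within a cell type. The longest pair of lists alone carried 30 of the 88 regions. Without them (an alternative chosen after seeing the data) 61 regions were left, 40 with Sox2-EGFPhigh+ peaks alone, and the share over all regions was 47.4%.

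By group, 47 of 57 regions (82.5%) of the otic epithelium genes, 2 of 4 of the broad genes and 19 of 27 (70.4%) of the genes best known elsewhere had Sox2-EGFPhigh+ peaks alone. Within the groups the members were unlike. *Six4* lacked any such region, whereas *Six2*, a gene of nephron progenitors and mesenchyme, had 11 of 14 (78.6%), close to *Eya1* (20 of 24, 83.3%) and *Dach1* (10 of 12, 83.3%). *Eya4* had 17 of 19 (89.5%), and 11 of its 19 regions rested on the 2 longest lists alone. So did 7 of 24 at *Eya1*, 6 of 12 at *Dach1* and 3 of 14 at *Six2*. By group this held for 24 of 57 regions of the otic epithelium genes, 0 of 4 and 6 of 27. The group shares therefore depend unequally on these 2 lists. The 2 regions of the broad genes were *Six5* regions inside *Dmpk*.

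**Figure D1:**
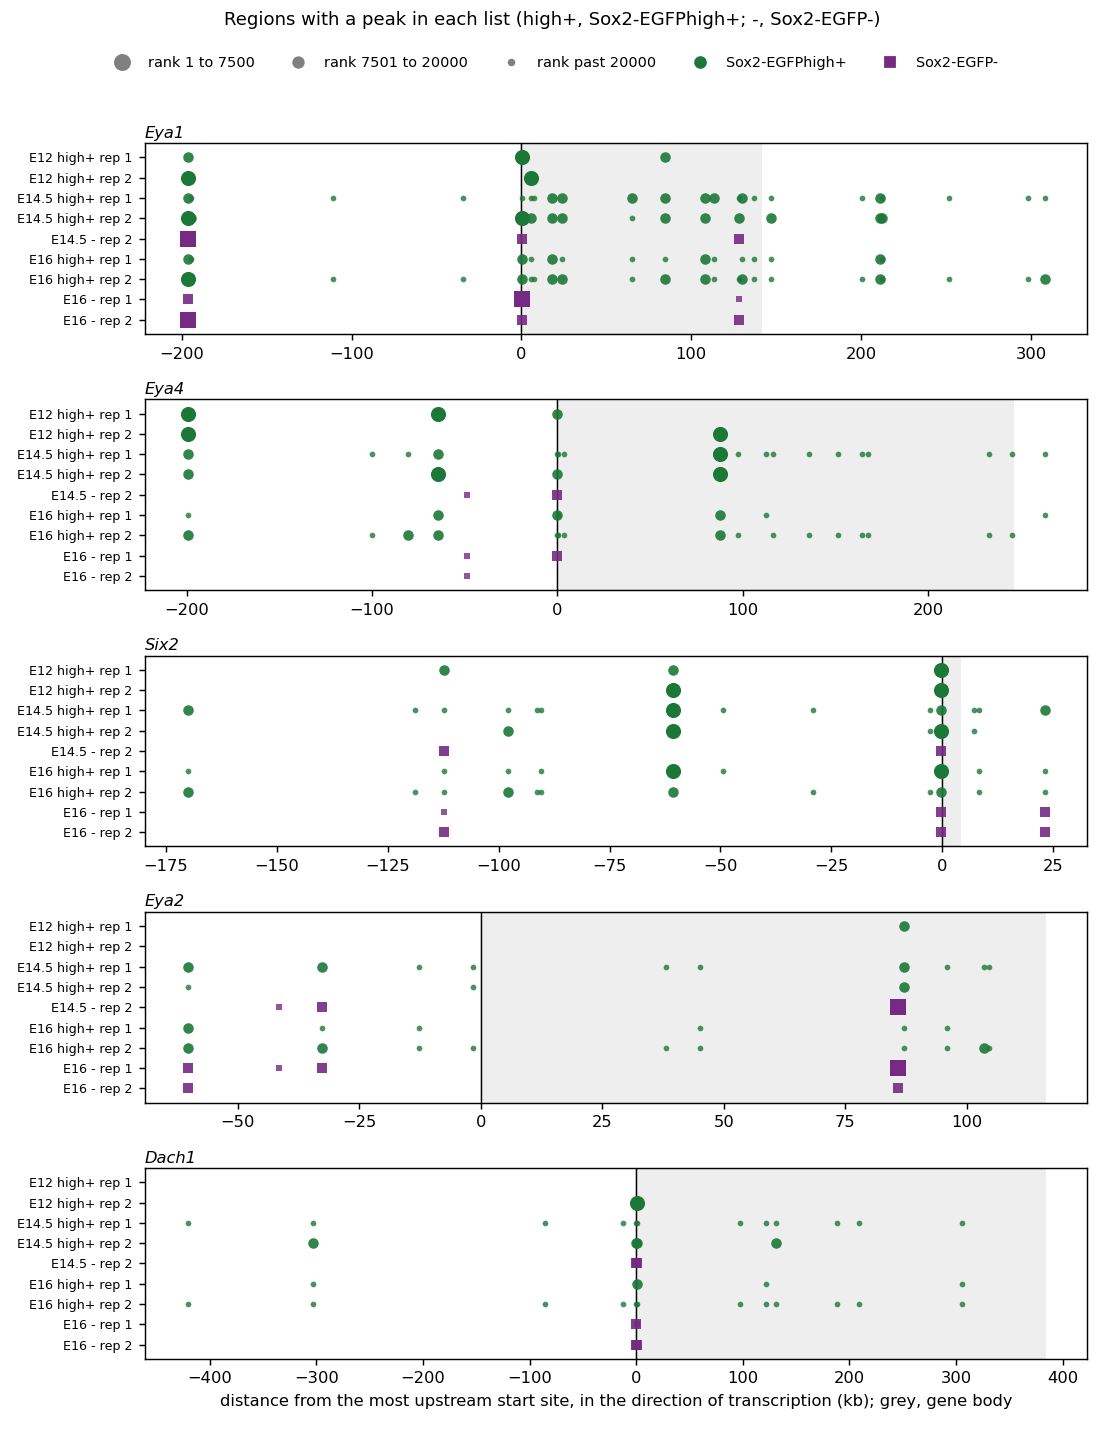
Regions at 5 genes in each of the 9 lists, by distance from the gene's most upstream start site in kb (the gene body is grey). Circles are Sox2-EGFPhigh+ and squares Sox2-EGFP- lists, and larger symbols are higher ranks. The *Eya1* regions (23 of 24 are drawn) run across the gene and downstream of it in the Sox2-EGFPhigh+ lists, the *Six2* region 60.7 kb upstream is in all 6 of these lists, and small symbols fill mainly the 2 longest lists.

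To compare cell types with lists of equal length, peaks were counted among the 20000 highest of each E14.5 and E16 list. *Eya4* had 3, 4, 3 and 4 such peaks in the Sox2-EGFPhigh+ samples (E14.5 replicates 1 and 2, E16 replicates 1 and 2) and 1, 1 and 0 in the Sox2-EGFP- samples (E14.5 replicate 2, E16 replicates 1 and 2). The groups did not overlap, and the means were 3.5 ± 0.577 (SD, n = 4) and 0.667 ± 0.577 (n = 3). The difference of 2.83 peaks had the smallest p that 35 splits allow (two-sided exact permutation test, p = 0.0286), and 0.339 after Benjamini-Hochberg adjustment over all 15665 genes. No gene of the series had a smaller adjusted p, while 1321 had an unadjusted exact permutation p under 0.05. Within sequencing batch 2, with 3 Sox2-EGFPhigh+ and 2 Sox2-EGFP- samples, the ranges also lay apart, and batch 1 held 1 sample of each cell type. The call for *Eya4* was lost with the 10000 and 5000 highest peaks, where the difference was 1.5 and 0.25 peaks, and with all 6 Sox2-EGFPhigh+ samples at 7500 peaks, where it was 1.17. Ranges lay apart with more peaks in Sox2-EGFPhigh+ cells for 5.22% of all genes and with fewer for 4.33%, against 1 of 9 members in each direction.

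*Eya1* had the most peaks of the members in 6 of these 7 lists and shared the lead with *Eya2*, at 3 peaks, in E16 Sox2-EGFP- replicate 1. It had 9, 12, 5 and 9 peaks in the Sox2-EGFPhigh+ and 5, 3 and 4 in the Sox2-EGFP- samples. The ranges met at 5, in E16 Sox2-EGFPhigh+ replicate 1 and in the E14.5 Sox2-EGFP- sample, so no difference was called (means 8.75 ± 2.87 and 4.0 ± 1.0; exact permutation test, p = 0.0857). Without either of those 2 samples the ranges lay apart, as they did in E16 alone, in batch 2 alone, with a limit of 100 kb and with all peaks. The difference of 4.75 peaks was 0 with the 10000 highest peaks, -0.0833 with 5000, -0.333 with all 6 Sox2-EGFPhigh+ samples at 7500 peaks, 2.0 by fold enrichment and 0.917 when all transcripts were used.

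*Six4*, a family member of placodes and muscle, was the 1 gene with fewer peaks in Sox2-EGFPhigh+ cells, with 1 peak in each of the 4 lists against 2 in each of the 3 Sox2-EGFP- lists (exact permutation test, p = 0.0286; adjusted p = 0.339). All of these peaks lay in the region at its start site. In E14.5 Sox2-EGFPhigh+ replicate 1 that region was 1 peak of 1311 bp. In E16 Sox2-EGFP- replicate 2 the same stretch held a peak of 299 bp over the start and another of 399 bp downstream of it. In both E16 Sox2-EGFPhigh+ lists a second peak was present at ranks 38327 and 53404, past the limit. In E14.5 Sox2-EGFPhigh+ replicate 2 the region held 1 peak, of 412 bp over the start, and none downstream of it. Thus the region was open in both cell types, and the lists differed in the number and width of the peaks called in it. The cause of this difference was not tested. With peaks ranked by fold enrichment the call for *Six4* was lost and *Dach2* was the 1 member with fewer. All *Dach2* peaks likewise lay in 1 region, at its start site. The second Sox2-EGFP- peak there was 238 bp wide at E14.5 and 200 bp in E16 replicate 2. In E14.5 Sox2-EGFPhigh+ replicate 1 the region was 1 peak of 1353 bp. In E16 Sox2-EGFPhigh+ replicate 2 a second peak was at rank 55258.

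The other members did not separate by this count. *Six2* had 4, 3, 2 and 4 peaks against 2, 2 and 3 (exact permutation test, p = 0.257). *Dach1* had 0, 4, 1 and 0 against 3, 1 and 2, with the 0 values in the longest pair of lists, where 20000 peaks are a smaller part of the whole. *Eya2* had 3, 1, 1 and 3 against 2, 3 and 2, and without the longest pair its ranges lay apart with fewer Sox2-EGFPhigh+ peaks. *Six5* had 2, 1, 2 and 0 against 1, 1 and 0, *Dach2* had 1 against 2, 1 and 2, and *Eya3* had 1 peak in every list.

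Ordered by their Sox2-EGFPhigh+ means, *Eya1* (8.75) stood above *Eya4* (3.5), and the lowest *Eya1* list, at 5 peaks, was above the highest *Eya4* list, at 4. *Six2* (3.25), *Eya2* (2.0), *Dach1* (1.25), *Six5* (1.25) and *Six4*, *Eya3* and *Dach2* (1.0 each) followed, and each overlapped its neighbour or was equal to it. Per 100 kb of the sequence nearest to the gene the order was another. *Six5* (7.27 peaks in Sox2-EGFPhigh+ and 3.88 in Sox2-EGFP- lists) and *Six4* (2.59 and 5.18), with the shortest such stretches, led. *Eya1* (1.57 and 0.719) and *Six2* (1.55 and 1.11) followed, then *Eya3* (1.19 and 1.19), *Eya2* (1.1 and 1.28), *Eya4* (0.723 and 0.138), *Dach1* (0.133 and 0.213) and *Dach2* (0.123 and 0.204). The mean over the genome was 0.855.

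**Figure D2:**
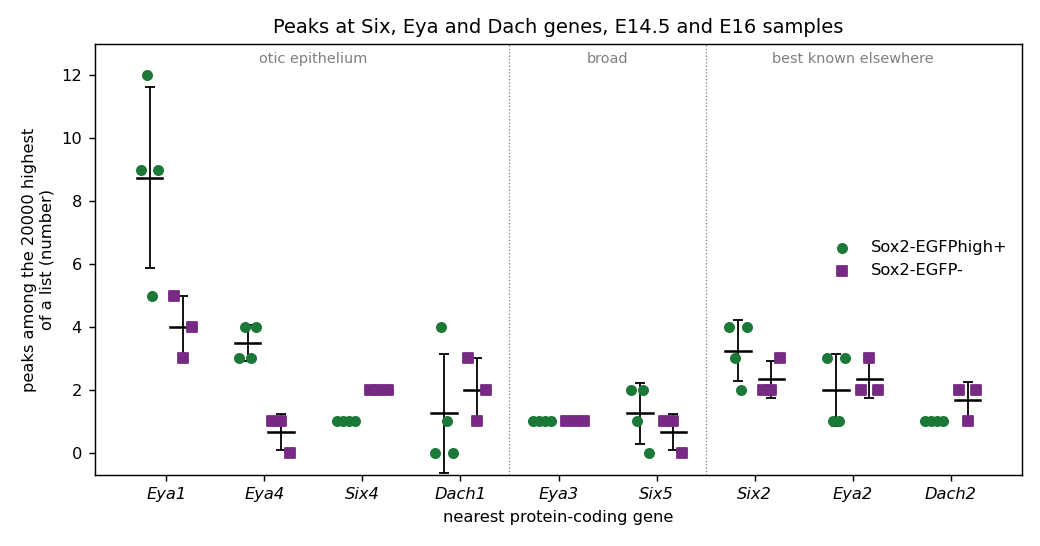
Peaks among the 20000 highest of each E14.5 and E16 list whose nearest protein-coding gene is the member named. Points are samples, bars are the mean and SD of 4 Sox2-EGFPhigh+ (circles) and 3 Sox2-EGFP- (squares) samples. The *Eya4* groups lie apart, the *Eya1* groups meet at 5 peaks, and *Eya3* is at 1 in all 7 samples.

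Regions were then compared one at a time by rank, with a region past rank 20000 or without a peak placed just below that limit. Of the 88 regions, 43 had a peak above that limit in at least 1 of the 7 lists. Ranks lay wholly apart for 6 of the 43 with better ranks in Sox2-EGFPhigh+ cells (14%, against 7.85% of 33815 regions tested in the series) and for 2 with worse ranks (4.65%, against 8.88%). Ranges that lie apart do not always give the smallest p, since the test compares mean ranks. Of these 8 regions, 4 had p = 0.0286 (two-sided exact permutation test; adjusted p = 0.255, the smallest over all regions). These were the *Six2* region, the *Eya4* region 64.5 kb upstream and both regions with worse ranks. The *Eya4* intronic region and the *Eya1* regions at 8.41 and 81.6 kb had p = 0.0571 (adjusted p = 0.353), and the *Eya1* region at 185 kb had p = 0.171 (adjusted p = 0.505) in the same exact permutation test. The 6 regions lay at *Eya1* (3), *Eya4* (2) and *Six2* (1), and the 2 at *Eya1* and *Eya2*. All 8 lay farther than 1 kb from a start site. The shares over the series include regions at start sites, and shares over distal regions alone were not counted.

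The *Six2* region (chr17:86147430-86148867) is intergenic, 60.7 kb upstream of the start site. It ranked 7870 and 990 at E12, 5945 and 4468 at E14.5 and 7419 and 7874 at E16 in Sox2-EGFPhigh+ cells, and had no peak in any Sox2-EGFP- list. Its summit was enriched 4.96-fold to 9.36-fold over the local background in the 4 later samples. Of the distal member regions, this one and one 199 kb upstream of *Eya4* had a peak in all 6 Sox2-EGFPhigh+ lists and in no Sox2-EGFP- list. It was the 1 member region that still stood apart with the 10000 highest peaks, but when peaks were ranked by fold enrichment it and the *Eya1* regions with better Sox2-EGFPhigh+ ranks were no longer called, and the *Eya4* pair was. The *Six2* start-site region (chr17:86087279-86088680), by contrast, had a peak in all 9 lists, ranked 10245, 1685, 5156 and 8339 against 10981, 7766 and 14943, and overlapped.

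At *Eya4* the leading distal region (chr10:22981582-22982427) lies in an intron, 87.8 kb downstream of the start. It ranked 5838, 6162, 14364 and 8291 in the later Sox2-EGFPhigh+ lists, with a peak in E12 replicate 2 at rank 6722 and no peak in Sox2-EGFP- lists. An intergenic region 64.5 kb upstream (chr10:23133797-23134353) ranked 9738, 3569, 11766 and 13566, with a peak at rank 6732 in E12 replicate 1, and likewise had no Sox2-EGFP- peak. Between it and the gene, at 48.8 kb upstream (chr10:23118415-23118980), a region had a peak in all 3 Sox2-EGFP- lists and in no Sox2-EGFPhigh+ list, at ranks 20665, 21455 and 21722, just outside the limit. The *Eya4* start-site region itself (chr10:23069627-23070738) was ranked 22643, 9046, 10191 and 25465 in Sox2-EGFPhigh+ lists, and 16624 and 15544 in 2 of the 3 Sox2-EGFP- lists. Its ranges overlapped. A second region at the start (chr10:23068777-23069433) was at 59771, 36483 and 65822 in 3 Sox2-EGFPhigh+ lists and had no other peak.

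*Eya1* held 3 regions with Sox2-EGFPhigh+ peaks in all 4 later lists within the limit and no Sox2-EGFP- peak. The highest ranked (chr1:14192012-14193172, intron, 81.6 kb downstream of the nearest of its 3 start sites) was at 12647, 8493, 13452 and 18029. A region between the outer and inner start sites (chr1:14282090-14282921, 8.41 kb upstream of the inner one, in an intron) was at 9220, 12256, 14359 and 17898. The third lay beyond the 3′ end (chr1:14089063-14089523, 185 kb downstream), at 16632, 13744, 19438 and 19037. None of them had a peak at E12. In all, 10 of the 24 *Eya1* regions had a peak in every later Sox2-EGFPhigh+ list and in no Sox2-EGFP- list when peaks of any rank were counted, against 3 of 19 for *Eya4*, 2 of 14 for *Six2* and 1 each for *Eya2*, *Dach1* and *Six5*. The share of such regions over the series was not counted. A wider rule, ranks apart with all peaks and better in Sox2-EGFPhigh+ cells, was met by the same 18 of the 88 member regions. It was met by 8.65% of 68362 regions, which include those at start sites, whereas all 18 were distal. No share over distal regions alone was counted, so no excess at these genes is read from these counts.

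Upstream of *Eya1*, at 197 kb (chr1:14496501-14497587), the highest ranked distal region of the gene was open in all 9 lists, at 8448, 3766, 8857 and 5502 in the later Sox2-EGFPhigh+ and 3357, 13874 and 6531 in the Sox2-EGFP- samples. The start-site region (chr1:14299629-14300476) had a peak in 8 of 9 lists, at 22258, 6559, 12477 and 16599 against 8575, 5812 and 15426. Both overlapped between the cell types.

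*Eya2*, a coactivator known from muscle precursors and placodes, gave a contrast within 1 intron. The region 76.4 kb downstream of the nearest start (chr2:165566478-165566905) ranked 7425, 4974 and 18191 in the Sox2-EGFP- lists and had no Sox2-EGFPhigh+ peak. Its neighbour (chr2:165567097-165568199) began 191 bp farther on and had no Sox2-EGFP- peak. The neighbour was at 19251, 15076, 39058 and 42921 in the later Sox2-EGFPhigh+ lists and at 9028 in E12 replicate 1, so within the 20000 highest peaks it was not called. The summits are 1124 bp apart. *Eya2* had no region within 1 kb of its start sites, and its distal region of the best mean Sox2-EGFPhigh+ rank (chr2:165420361-165421636, 60.3 kb upstream) was at 16645, 20645, 18986 and 16956 in Sox2-EGFPhigh+ lists and at 11878 and 13010 in the E16 Sox2-EGFP- lists, with no peak in the E14.5 one.

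The start-site regions of the remaining genes were shared. *Six4* (chr12:74213436-74214756) ranked 1722, 3880, 2834 and 4917 in the later Sox2-EGFPhigh+ lists against 3050, 7836 and 6695. *Dach2* (chrX:110411053-110412409), its 1 region, ranked 3300, 207, 5269 and 1929 against 1720, 5849 and 3383. *Eya3* (chr4:132194639-132195635), also its 1 region, ranked 1125, 1683, 3074 and 2337 against 456, 895 and 1859. All 3 had a peak in each of the 9 lists, and each overlapped between the cell types.

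*Six5* (chr7:19679128-19680886) had start-site peaks at 16817, 11247 and 25314 in 3 later Sox2-EGFPhigh+ lists, and at 16041 and 8588 in 2 Sox2-EGFP- lists. Its other 2 regions lay inside *Dmpk* and had Sox2-EGFPhigh+ peaks alone. When transcripts of any type were used, the nearest start was one of *Dmpk*, 485 and 1016 bp from their summits. They count as distal *Six5* regions only under the protein-coding rule. *Dach1*, a corepressor gene with long flanking deserts, had a start-site region (chr14:98568683-98569391) at 9080, 11434 and 14334 in the Sox2-EGFP- lists. In Sox2-EGFPhigh+ lists it was at 50509, 11065 and 51723, with no peak in E16 replicate 1. The highest ranked distal region of *Dach1* (chr14:98566957-98568551, 1.2 kb inside the gene) was shared, and none of the 10 regions of *Dach1* with Sox2-EGFPhigh+ peaks alone stood apart within the limit.

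**Figure D3:**
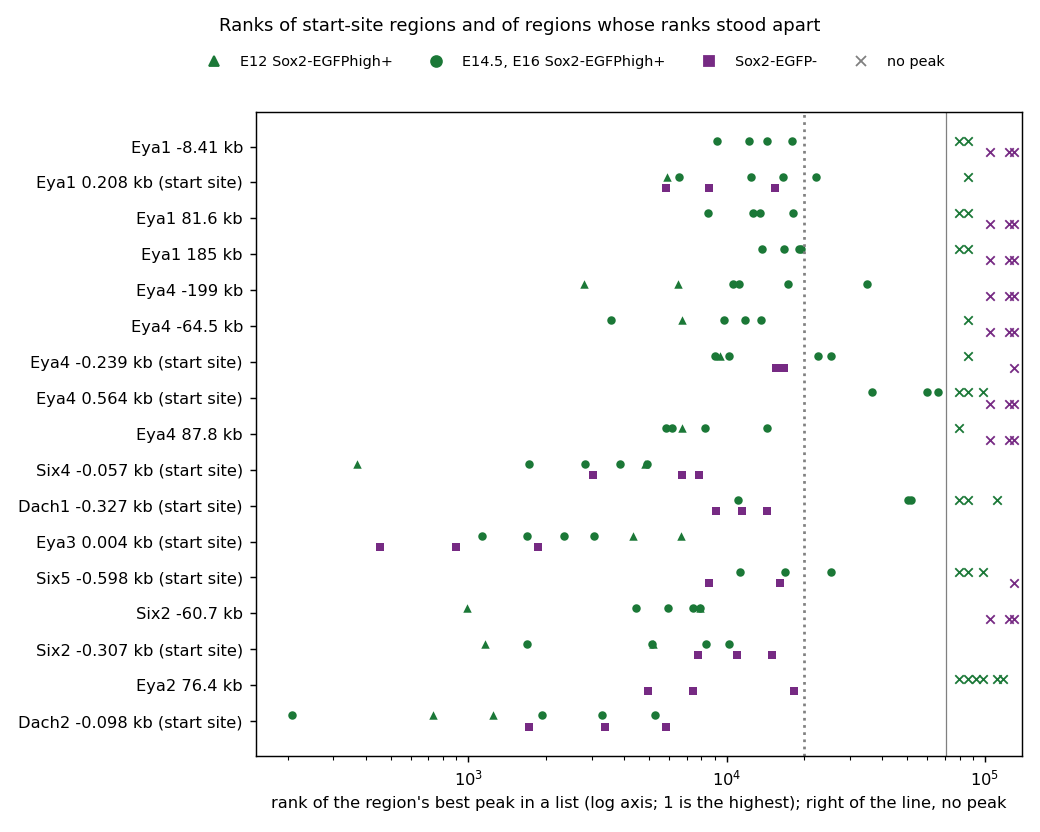
Rank of the best peak in each list (log axis, 1 is the highest) for the start-site regions and regions whose ranks stood apart (1 is not shown), with offsets in kb from the nearest start site. Triangles are E12, circles later Sox2-EGFPhigh+ and squares Sox2-EGFP- lists, crosses right of the solid line mark lists without a peak, and the dotted line is rank 20000. Squares are absent from the called *Six2*, *Eya4* and 3 of the *Eya1* rows, and green points from *Eya2* at 76.4 kb.

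By stage, Sox2-EGFPhigh+ lists were compared over their 7500 highest peaks, the number the shorter E12 list allows. With 2 E12 against 4 later samples no p under 0.0667 is possible. Of the members, 0 had a peak count that lay apart in either direction, where 2.67% of all genes had more peaks at E12 and 3.23% fewer (exact permutation test, 0 of 10869 genes with an unadjusted p under 0.05). *Eya4* had 2 and 2 peaks at E12, 1 and 2 at E14.5 and 0 and 0 at E16. *Eya1* had 1 and 2, then 0 and 2, then 0 and 1, and *Six2* had 1 and 2, then 1 and 2, then 2 and 0. The 7500 highest are nearly all of the 7577 peaks of E12 replicate 2, but few of the 65870 of E16 replicate 2. The *Eya4* region at 87.8 kb ranked 6722 in the former (deposited −log10 p of 6.17). In the latter it ranked 8291 (26.1), outside the limit. A later count of 0 therefore does not show closed chromatin.

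Of 13 member regions with a peak above rank 7500, 1 ranked better at E12 in all comparisons (7.69%, against 6.53% of 13489 regions) and 1 worse (7.69%, against 7.59%). The first was an intergenic region 199 kb upstream of *Eya4* (chr10:23268848-23269718), at 6492 and 2812 at E12 against 10580, 17318, 34883 and 11133 later, with no Sox2-EGFP- peak. Its deposited −log10 p was 9.01 and 9.45 at E12 and 54.6, 7.19, 6.82 and 22.4 later. Ranked by fold enrichment it was not called, and the *Six2* start-site region was in its place. The second was the start-site region of *Eya3*, at 4353 and 6689 at E12 and 1125 to 3074 later. When peaks of any rank were counted, 16 of the 88 regions had a peak in an E12 list, 84 in an E14.5 and 83 in an E16 Sox2-EGFPhigh+ list. The E12 lists are the shortest, so a missing E12 peak does not show closed chromatin at this depth.

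CpG content was described for the sequence around the summits, with no test. The 8 distal regions with peaks in both cell types had a median of 16.5 CpG dinucleotides in 250 bp (2 to 41), close to the 16 (7 to 35) of the 9 start-site regions. The 67 with Sox2-EGFPhigh+ peaks alone had a median of 3 (0 to 15), and the 4 with Sox2-EGFP- peaks alone 4.5 (3 to 6). The ranges overlapped: the shared regions of *Eya2* at 32.7 kb upstream and of *Eya1* at 102 kb held 2 and 4. Of the 8 shared regions, those of *Dach1* and *Six4*, with 26 and 19, lay 1.2 and 1.29 kb from a start site, just past the 1 kb limit. In the series as a whole these medians were 7, 3 and 4, and 21 for regions within 1 kb of a start site. The *Eya1* region at 197 kb upstream held 24 CpGs at a G+C content of 70.8%, and the *Eya2* region at 60.3 kb upstream held 41 at 81.6%, as shown by the capitals above. No start site of any annotated transcript lay nearer to these 2 summits than the start site of *Eya1* and of *Eya2*. The *Six2* region at 60.7 kb had 8 CpGs and the *Eya4* intronic region 1.

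**Figure D4:**
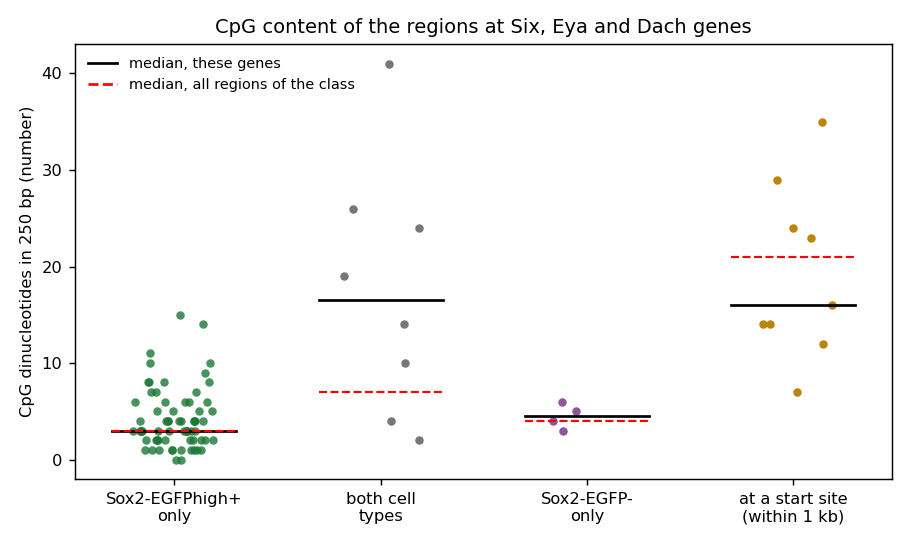
CpG dinucleotides in 250 bp around the best summit of the 88 regions. Points are regions, black lines their medians (3, 16.5, 4.5 and 16 from left to right) and dashed red lines the medians over all regions of the same class (3, 7, 4 and 21). Shared distal regions reach 41 CpGs, and distal regions with Sox2-EGFPhigh+ peaks alone reach 15.

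The same windows were searched on both strands for short cores of factors with a role in the duct. The core of Gata factors (AGATAAG) was in 7 of the 79 distal member regions (8.86%) and in 4.54% of all distal regions. It was in the *Eya4* intronic region and, on the other strand, in the *Eya1* region at 81.6 kb. CATTGTT, a Sox core, was in 8 (10.1%, against 6.76%). GGAATG, a Tead core, was in 10 (12.7%, against 17.7%), with 2 matches in the *Eya1* region at 8.41 kb. MEF3, the site bound by Six4 and its relatives in muscle genes (TCAGGTTTC), was in 3 (3.8%, against 1.23%). These were regions of *Eya4* (2) and *Eya2* (1) with Sox2-EGFPhigh+ peaks alone. The exact Six2 consensus of HOMER was in 0 of 79, against 0.77%. These are matches of letters in short windows, and the few at these genes allow no comparison with the series.

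The wider network was read from 15 genes of Pax factors, partners of Eya proteins, Ski relatives, Groucho corepressors and prosensory regulators. Ranges lay apart with more Sox2-EGFPhigh+ peaks for 2 of them and with fewer for 0, against 5.22% and 4.33% of all genes. Both genes were among the 5 prosensory markers above, and the cells were sorted by the *Sox2* reporter. They are therefore not independent of that marker comparison. *Gata3*, a regulator of prosensory development, had 4, 5, 5 and 4 peaks against 1, 2 and 2, and *Sox2* had 8, 7, 6 and 7 against 3, 2 and 3 (exact permutation tests, p = 0.0286 each; adjusted p = 0.339). *Sobp*, which encodes a nuclear protein altered in the deaf Jackson circler mouse, had 0, 3, 2 and 0 against 4, 3 and 4, and *Pax2*, an otic placode factor, 3, 6, 3 and 0 against 1, 1 and 0. Both overlapped. The genes whose counts over the 7 lists were most like those of *Eya1*, of 144 with a mean of at least 5 peaks, were *Clint1* (Pearson's r = 0.935), *Tcf7l2* (0.913) and *Btbd3* (0.901). These values describe 7 points that share libraries and list depth, and they carry no test.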

How the data were processed

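The material was 9 lists of ATAC-seq peaks (6 Sox2-EGFPhigh+, 3 Sox2-EGFP-). Per the methods of the study, reads went through Trim Galore and Bowtie2 (mm9), then duplicate removal in Picard and SAMtools. MACS2 was run on each sample, and peaks that recurred within a cell type were kept by the authors. In the deposited lists, the fold enrichment is the ratio of the summit pileup to the local background. Each peak also carries a deposited −log10 p and a deposited −log10 q, which compare it with the background of its own sample. The lists hold no reads, so depth is given as list length, and a peak missing from a short list may lie under its detection limit.

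Peaks were ranked by −log10 p (ties by fold enrichment) and assigned to the nearest start site of 51720 GENCODE vM1 protein-coding transcripts, at most 500 kb away, with Python 3.11.15, NumPy 2.4.6, pandas 2.3.3 and matplotlib 3.10.9. Peaks were merged at 100 bp. A call required that the ranges of the groups lay apart, among the 20000 highest peaks for cell type (E14.5 and E16) or 7500 for stage. Two-sided exact permutation tests were adjusted by Benjamini-Hochberg over all genes or regions with a peak above the limit. Assignment, merging and calls were tested on simulated data.

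Members, groups and lists were chosen with earlier results of these data known. Regions named are those at start sites, those whose ranks lay apart and the highest ranked distal one of each gene, and those without a call that are named besides were picked after their values were seen, as were the sequences of *Eya1* at 81.6 kb and of *Eya2* at 76.4 and 77.5 kb. Both E16 samples numbered 1 were sequenced in batch 1 and the other 7 in batch 2. Replicates were separate litters. A single region is counted but not otherwise reported here. Other alternatives were list length, ranking by fold enrichment, all transcripts, a 100 kb limit, the merging distance, subsets of stage and batch, and leaving out each sample.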

Additional observations from a re-analysis of the deposited data

Results flagged for a closer look

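In 31 groups of Sox2-EGFPhigh+ samples examined for a sample far from the others, 2 were found. The limit for the gap is meant to be passed by chance in about 1 in 20 groups, and this rate was not checked for counts of 0 and 1. *Dach1* had 1 peak among the 7500 highest in E12 replicate 2 and 0 in the other 5 Sox2-EGFPhigh+ lists. *Six5* had 1 in E14.5 replicate 2 and 0 in the other 5. Both rest on a single peak.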

How the results depend on the processing

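Counts of calls differed with the number of peaks used. With the 10000 and 5000 highest peaks, and with all 6 Sox2-EGFPhigh+ samples at 7500 peaks, 0 members had more and 0 fewer peaks by cell type, with all peaks 4 and 0. Over all genes, in the same order, 2.57%, 1.7%, 1.11% and 13.3% had more and 1.82%, 0.861%, 0.656% and 0.576% fewer. E16 alone, and a limit of 100 kb, gave 2 with more, and batch 2 alone gave 2 with more and 2 with fewer. In these settings 10.5%, 4.75% and 7.86% of all genes had more, and in batch 2 alone 7.87% had fewer. Without the 2 longest lists 2 had fewer, against 6.41% of all genes. For *Six4*, the difference reversed to 0.667 peaks at 5000 and 0.333 with all 6 samples. With samples left out in turn, 1 to 2 members had more (*Eya1* was added without E14.5 Sox2-EGFP- replicate 2 or E16 Sox2-EGFPhigh+ replicate 1) and 1 to 2 fewer peaks (*Dach2* was added without E16 Sox2-EGFP- replicate 1). Over all genes 5.89% to 7.22% then had more and 5% to 6.55% fewer. Member regions that ranked higher numbered 1, 0, 18 and 0 with 10000, 5000, all peaks and all 6 samples (lower: 0, 0, 4 and 0), 2 when ranked by fold enrichment and 10 in batch 2. Over all regions tested, in the same order, 4.96%, 3.26%, 8.65%, 1.56%, 5.32% and 12.3% ranked higher. With 10000, 5000, all peaks and all 6 samples, 5.01%, 3.02%, 6.37% and 2.21% of all regions ranked lower. Member regions that ranked lower numbered 6 in E16 alone, where 20.6% of all regions tested did so. With samples left out in turn, 6 to 9 ranked higher and 2 to 4 lower, against 9.15% to 11.7% and 10.2% to 14.4% of all regions. The 4 lower regions were found without E16 Sox2-EGFP- replicate 2. Both cell types were sorted side by side in some cases, but no source used here ties samples of the same number to 1 litter. Over 15665 genes the E16 deviations of the same number had a Pearson's r of 0.063. With the replicate block, 2 members (*Eya1*, *Eya4*) had more peaks in all 3 pairs, by 7, 2 and 5 and by 3, 2 and 4 (exact sign-flip test, p = 0.25, the smallest possible), 1 had fewer, and 8 regions ranked higher and 4 lower. Of all genes 6.81% had more and 6.52% fewer in all 3 pairs, and of all regions 11.8% ranked higher and 15.2% lower. By stage, *Eya4* alone had more peaks at E12 than at E16 (1 member, against 5.81% of all genes), and leaving out samples gave 0 to 1 with more (*Dach1* without E12 replicate 1, *Eya4* without E14.5 replicate 2) and 0 with fewer. Over all genes, leaving out samples gave 3.18% to 12% with more and 3.95% to 8.55% with fewer. With the 5000 highest peaks 0 regions ranked higher at E12, and leaving out samples gave 1 to 6 higher (6 without E12 replicate 1, 3 without E12 replicate 2 and 2 without E14.5 replicate 2) and 1 lower. Of all regions 6.31% ranked higher at E12 with 5000 peaks. Without E12 replicate 1 the share was 26.7%, without E12 replicate 2 25.6% and without E14.5 replicate 2 9.13%. The share that ranked lower was 9.34% to 14.8% with samples left out.

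Of the regions, 53 lay within 100 kb (37 with Sox2-EGFPhigh+ peaks alone), and 57 (38) remained when all transcripts were used, since non-coding genes then took some. Over the series, 62.4% and 65.5% of regions had Sox2-EGFPhigh+ peaks alone in these settings. A −log10 q of at least 5 left 2 regions with Sox2-EGFP- peaks alone (4.97% of regions over the series). Of 2 alternatives chosen after seeing the data, the 20000 highest peaks gave 43 regions (26 with Sox2-EGFPhigh+ and 2 with Sox2-EGFP- peaks alone), and without the 2 longest lists (also chosen so above) 40 had Sox2-EGFPhigh+ peaks alone. With samples left out in turn there were 88 to 90 regions, of which 68 to 70 had Sox2-EGFPhigh+ peaks alone, 16 had both and 4 Sox2-EGFP- peaks alone. The causes of these shifts were not tested.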
